A study of Mus musculus with 9 samples.

Results

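A set of 10 genes of fatty acid synthesis and triglyceride storage were followed in neonatal rat ventricular cardiomyocytes (NRVMs) that overexpressed LacZ, Nrf1 or Nrf2. They are Acly, Acaca, Fasn, Elovl6, Srebf1, Dgat1, Dgat2, Plin2, Lpl and Pnpla2, taken by symbol, and each was found among 15095 genes with reads in the tables. NRVMs are ventricular muscle cells isolated from newborn Sprague Dawley rats, here 1 to 2 days old, and kept in culture for 48 hours before infection. The labels give the organism as mouse, but the cell type, strain and genome build are those of the rat. All 3 groups, the control included, were infected with adenovirus at a multiplicity of infection of 50, and each group holds 3 RNA sequencing libraries. LacZ, a bacterial enzyme, was the control, and Nrf1 and Nrf2 are transcription factors of the cap'n'collar family. The comparisons ask how each factor changed transcript levels against LacZ, and how Nrf2 differed from Nrf1.

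Cells make fatty acids in the cytosol from citrate. ATP citrate lyase (Acly) releases acetyl-CoA, acetyl-CoA carboxylase (Acaca) turns it into malonyl-CoA, fatty acid synthase (Fasn) builds palmitate and Elovl6 lengthens it, while Srebf1 encodes a transcription factor that drives these enzymes. Acyl chains are then joined to glycerol, and the last step, from diacylglycerol to triglyceride, is done by Dgat1 and Dgat2, a pair of enzymes that share a reaction but not a sequence family. Triglyceride is stored in lipid droplets coated by perilipins such as Plin2, and is released by the lipase encoded by Pnpla2. Heart muscle takes most of its fatty acids from the blood, and lipoprotein lipase (Lpl) frees them from circulating lipoproteins.

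The libraries held between 7894221 and 11960378 counted reads. The authors deposited group means, from which the whole reads of each library were recovered; libraries are called a, b and c within a group, from the deepest to the shallowest, since their replicate numbers could not be told. Levels are normalized read counts on a scale shared by the 9 libraries, and since gene lengths are not part of it, they were compared between groups and not between genes. Nfe2l2, the gene of Nrf2, averaged 3455 ± 49.5 (SD, n = 3) in LacZ samples, 2859 ± 40.3 in Nrf1 samples and 74590 ± 6129 in Nrf2 samples, as the labels require. The gene of Nrf1 was not analysed here, so its overexpression was not checked.

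Marker lists of other cell types were read beside the members. The summed level of 10 fibroblast markers lay between 123618 and 129726 in LacZ samples. It was 31619 to 34107 in Nrf1 samples and 64437 to 69645 in Nrf2 samples. Most of that sum was Col1a1, which averaged 91557.5 in LacZ, 24038.7 in Nrf1 and 49692.6 in Nrf2 samples. Col3a1 came next, at 26515.4, 6312.35 and 13314.1. Of the markers, 10 of 10 fell with Nrf1 and 8 of 10 with Nrf2. Of 9 leukocyte markers tested 8 fell with each factor, and their summed level was 1922 to 2810 in LacZ samples, 1104 to 1163 in Nrf1 samples and 1103 to 1193 in Nrf2 samples. Endothelial markers summed to between 1435 and 1476 in LacZ samples and to between 1011 and 1248 in the others, with 5 of 8 lower with Nrf1, and 4 lower and 1 higher with Nrf2. In bulk RNA, fewer cells of a type and less RNA per cell cannot be told apart. Cardiomyocyte markers were abundant in all groups. Their summed level was 181544 to 211197 in LacZ samples, 178145 to 180224 in Nrf1 samples and 206733 to 210015 in Nrf2 samples, so the Nrf1 samples lay lowest. Of 11 tested, 2 rose and 4 fell with Nrf1 while limma called 0 with Nrf2 (9 at an unadjusted p under 0.05). The sum thus mixes moves in both directions. From LacZ to Nrf1 samples the mean of Actc1 went from 37149 to 57490 and that of Ryr2 from 4465 to 7954. Nppa went from 44281 to 28810 and Myh7 from 15335 to 7325. Myl2 went from 9954 to 4987 and Tnni3 from 3772 to 1935. Of 6 smooth muscle markers, some of which immature cardiomyocytes also express, Des, Acta2 and Tagln rose with Nrf1 by 1.31, 0.84 and 0.84 on the log2 scale and Myh11 fell by 1.01, with Smtn at -0.29 and Cnn1 at 0.11 not called. With Nrf2 Cnn1 and Des rose by 0.82 and 0.75. Their sum was 45135 to 51806 in LacZ samples, 90681 to 91166 in Nrf1 samples and 68102 to 70754 in Nrf2 samples. Adipocyte markers were near 0, with sums of 34.1 to 64.0 over 7 genes, at most 3 reads of Plin1 and at most 7 reads of Adipoq in any library. Most of that sum was Fabp4, at 34.4 to 37.2 in LacZ samples, 24.6 to 27.4 in Nrf1 samples and 21.4 to 37.6 in Nrf2 samples, and Cfd, at 11.1 to 22.4, 3.79 to 7.80 and 7.80 to 9.11. Of these 2 tested markers limma called Cfd lower with Nrf1, where it passed the filter on low values only through LacZ samples, and 0 with Nrf2 (1 at an unadjusted p under 0.05). In Nrf2 over Nrf1, 7 of 10 fibroblast, 4 of 11 cardiomyocyte, 2 of 9 leukocyte, 1 of 8 endothelial and 2 of 6 smooth muscle markers were called higher. Only the fibroblast list had a marker called lower, 1 of 10. At an unadjusted limma p under 0.05, 2 cardiomyocyte, 2 leukocyte, 1 endothelial and 4 smooth muscle markers were lower. Of all tested genes 10.6% were called higher and 4.57% lower in that comparison. In Nrf1 over LacZ 11.2% of all tested genes were called higher and 16.5% lower. In Nrf2 over LacZ the shares were 8.78% and 9.28%. The part of these marker lists in the results that follow was not tested.

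**Figure D1:**
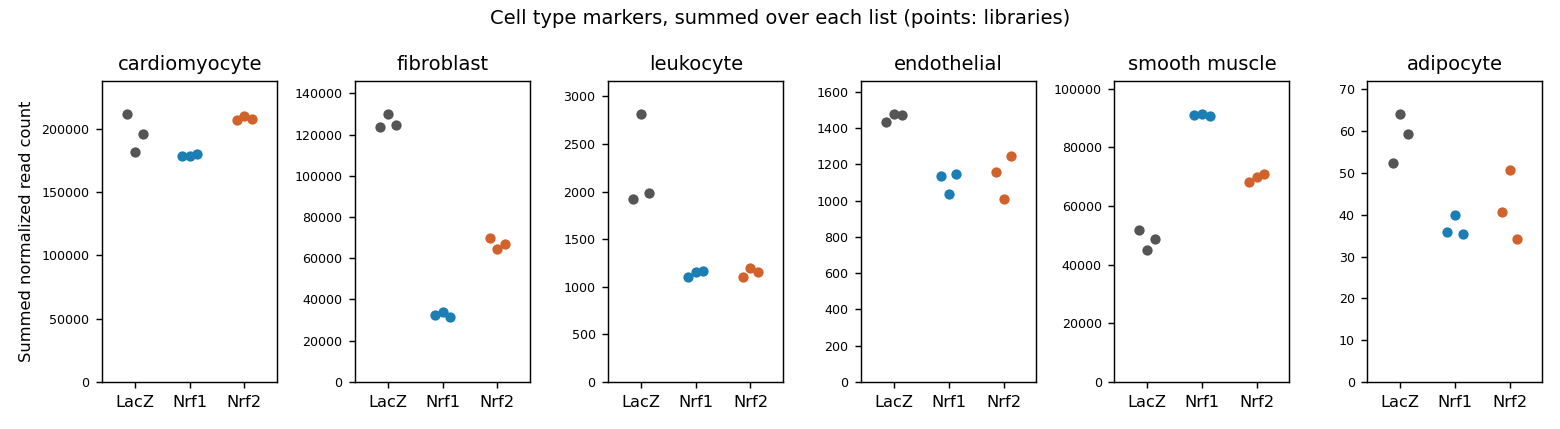
Summed normalized read count of each cell type marker list, 1 point per library, for the LacZ, Nrf1 and Nrf2 groups; each panel has its own vertical axis from 0. The fibroblast sum is 31619 to 34107 in Nrf1 samples against 123618 to 129726 in LacZ samples, while the adipocyte sum is at most 64.0 in every library.

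Dgat2 was the member that differed most between the factors. It averaged 389 ± 5.08 in LacZ samples, 245 ± 25.2 in Nrf1 samples and 2090 ± 11.4 in Nrf2 samples (SD, n = 3), so it rose 5.37-fold with Nrf2 and fell 1.59-fold with Nrf1. Plin2 rose with both factors, from 1015 ± 57.6 to 1651 ± 26.6 and 1676 ± 15.6. The fatty acid synthesis enzymes Acly, Acaca and Fasn and their regulator Srebf1 stayed within 1.5-fold of LacZ with either factor, and so did Lpl and Dgat1. Elovl6 had few reads and rose with Nrf1, and Pnpla2 had too few reads to be tested.

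A gene was called where its fold was above 1.5 and its adjusted p under 0.05 in limma, with Benjamini-Hochberg adjustment over all genes tested in that pair of groups, which are those with an average of at least 10. Of the 10 members 9 were tested. In Nrf1 samples compared to LacZ samples, 2 of 9 rose (Elovl6 and Plin2) and 1 fell (Dgat2), beside 11.2% of 11202 tested genes that rose and 16.5% that fell. In Nrf2 samples compared to LacZ samples, 2 of 9 rose (Dgat2 and Plin2) and 0 fell, beside 8.78% and 9.28% of 11386 genes; of the 9, 2 were lower at an unadjusted limma p under 0.05. In Nrf2 samples compared to Nrf1 samples, 1 of 9 rose (Dgat2) and 0 fell, beside 10.6% and 4.57% of 11307 genes; 3 members were lower at an unadjusted p under 0.05. The median log2 difference of the tested members was -0.07, 0.02 and 0.02 in these comparisons, and that of all tested genes 0.01, -0.00 and -0.01. With 9 genes these shares are coarse, and the members are described 1 by 1. The comparisons with LacZ share the LacZ libraries and are not independent. Nothing in the labels says that the libraries came from separate cultures, so the p-values measure the spread between these samples, which may be technical.

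**Figure D2:**
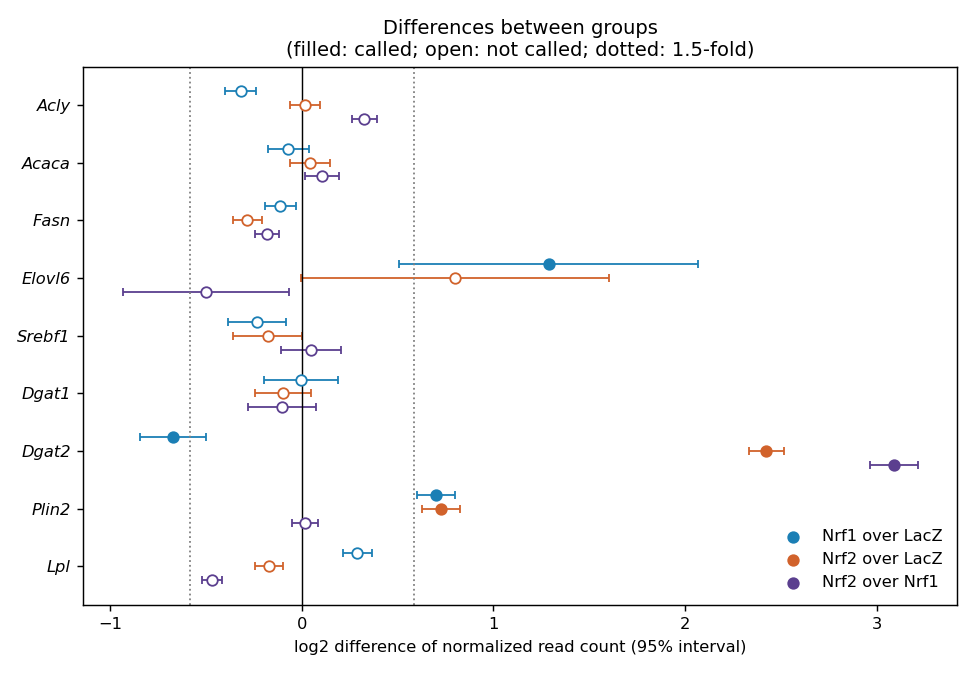
The log2 difference of the normalized read count for the 9 tested genes in each comparison, with 95% intervals; filled points were called, open points were not, and the dotted lines mark 1.5-fold. Dgat2 stands at -0.67 with Nrf1, 2.43 with Nrf2 and 3.09 in Nrf2 over Nrf1, while most other points lie inside the dotted lines.

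Srebf1, which encodes the regulator SREBP1, ranged from 384 to 439 in LacZ samples, from 343 to 375 in Nrf1 samples and from 325 to 407 in Nrf2 samples. The Nrf1 samples lay below all LacZ samples, at a log2 difference of -0.23 ± 0.071 (SE, limma adjusted p = 0.00884), within 1.5-fold. The Nrf2 samples overlapped both other groups, at log2 differences of -0.18 (95% interval -0.36 to 0.00) from LacZ and 0.05 (-0.11 to 0.21) from Nrf1.

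Among 20 other regulators of lipid synthesis, 20 tested, 4 rose and 2 fell with Nrf1 and 0 were called with Nrf2. In Nrf2 over Nrf1, 2 were higher and 1 was lower. Beside these counts, 11.2% of all tested genes rose and 16.5% fell with Nrf1, and 8.78% and 9.28% with Nrf2. In Nrf2 over Nrf1 the shares were 10.6% higher and 4.57% lower. The same shares stand beside the counts of the other pathway lists below, and no list was tested as a set. Nr1h2, which encodes the oxysterol receptor LXR beta, rose with Nrf1 from 428 ± 24.8 to 757 ± 42.3 against 430 ± 8.09 in Nrf2 samples, a log2 difference of 0.82 over LacZ. Mlx, the partner of the glucose-sensing factor ChREBP, rose by 0.78, and Mlxipl, which encodes ChREBP itself, fell by 0.77 from 33.4 ± 9.09 to 18.8 ± 2.57, a call lost without LacZ library c (-0.60, adjusted p = 0.0837). Cebpa, a factor of fat cell differentiation, fell by 0.86 with Nrf1 and was 1.36 higher with Nrf2 than with Nrf1. The other called genes, named after their values were seen, were Pparg, a receptor that promotes fat storage, higher by 0.73 (0.57 and not called without LacZ library a), and Prkaa2, a catalytic subunit of the kinase AMPK, higher by 0.68. Insig1, which holds the SREBP complex in the endoplasmic reticulum, differed by 0.20, 0.13 and -0.07 and was not called. With Nrf2, limma gave 9 of the 20 an unadjusted p under 0.05.

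Acly read 2208, 2123 and 2175 in LacZ samples, 1716, 1778 and 1735 in Nrf1 samples, and 2220, 2207 and 2153 in Nrf2 samples. The Nrf1 samples were thus the lowest, without overlap. The log2 difference was -0.32 ± 0.038 in Nrf1 over LacZ (adjusted p = 2.26e-06), 0.02 ± 0.037 in Nrf2 over LacZ (adjusted p = 0.709, 95% interval -0.06 to 0.10) and 0.33 ± 0.031 in Nrf2 over Nrf1 (adjusted p = 5.37e-08). All of these lay within 1.5-fold.

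Acaca varied little, with 866 to 934 in LacZ samples, 821 to 879 in Nrf1 samples and 892 to 934 in Nrf2 samples. LacZ samples overlapped both other groups, with intervals of the log2 difference of -0.18 to 0.04 for Nrf1 and -0.06 to 0.15 for Nrf2. Nrf2 samples lay above Nrf1 samples by 0.10 ± 0.042 (adjusted p = 0.041).

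Fasn read 3458, 3321 and 3474 in LacZ samples, 3213, 3242 and 3056 in Nrf1 samples, and 2786, 2829 and 2796 in Nrf2 samples. No groups overlapped and the Nrf2 samples were the lowest, an order unlike that of Acly, whose Nrf1 samples were the lowest. The log2 difference was -0.11 ± 0.037 with Nrf1 (adjusted p = 0.0158), -0.28 ± 0.035 with Nrf2 (adjusted p = 8.58e-06) and -0.18 ± 0.029 in Nrf2 over Nrf1 (adjusted p = 3.21e-05), none of them past 1.5-fold.

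Elovl6 rested on few reads, 27, 34 and 8 in LacZ libraries a, b and c, 79, 47 and 41 in Nrf1 libraries and 42, 38 and 50 in Nrf2 libraries. Its level was 24.9 ± 14.5, 55.8 ± 16.4 and 38.9 ± 8.52, and LacZ library c, at 9.48, lay far under the others. It rose with Nrf1 by 1.29 ± 0.37 on the log2 scale (adjusted p = 0.00575), without overlap. Without LacZ library c this was 0.74 (adjusted p = 0.0194), and in a fit without a mean-variance trend the call was lost (adjusted p = 0.0677). With Nrf2 the groups overlapped and the log2 difference was 0.80 ± 0.37 (adjusted p = 0.0843), or 0.25 without LacZ library c and 1.20 without LacZ library b (adjusted p = 0.00985). In Nrf2 over Nrf1 it was -0.50 ± 0.21 (adjusted p = 0.0461), and it passed 1.5-fold without Nrf1 library b (-0.62), Nrf1 library c (-0.60) or Nrf2 library c (-0.67).

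Of 22 other genes of fatty acid synthesis and remodelling, 21 had reads. In Nrf1 samples 2 of 18 tested rose and 1 fell, in Nrf2 samples 3 of 19 rose and 1 fell, and in Nrf2 over Nrf1 4 of 19 were higher and 1 was lower. Me1, the malic enzyme that supplies NADPH for synthesis, averaged 1552 ± 61.1 in LacZ samples, 2851 ± 46.2 in Nrf1 samples and 5579 ± 204 in Nrf2 samples. It rose with both factors, by 0.87 and 1.85, and was 0.96 higher with Nrf2 than with Nrf1 (adjusted p = 5.28e-15). The desaturase Scd1 rose with Nrf2 by 0.67 (0.57 and not called without LacZ library a) and was -0.01 from LacZ with Nrf1, while its near copy Scd2 differed by 0.19 and 0.30 and was not called; reads shared between such copies may be split. The elongase Elovl7 rose by 1.42 with Nrf1 and 0.75 with Nrf2, and Elovl4, an elongase of very long chains, fell by 1.83 and 1.40. Elovl5, named after its values were seen, was 0.65 higher with Nrf2 than with Nrf1. Elovl2, which like it lengthens polyunsaturated chains and is counted among the 4, had 16, 7 and 10 reads in LacZ libraries, 10, 6 and 7 in Nrf1 libraries and 20, 16 and 24 in Nrf2 libraries. Nrf1 samples averaged 7.77, so it passed the filter on low values only through Nrf2 samples there. The median log2 difference of this list was -0.01 with Nrf1 and 0.28 with Nrf2.

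**Figure D3:**
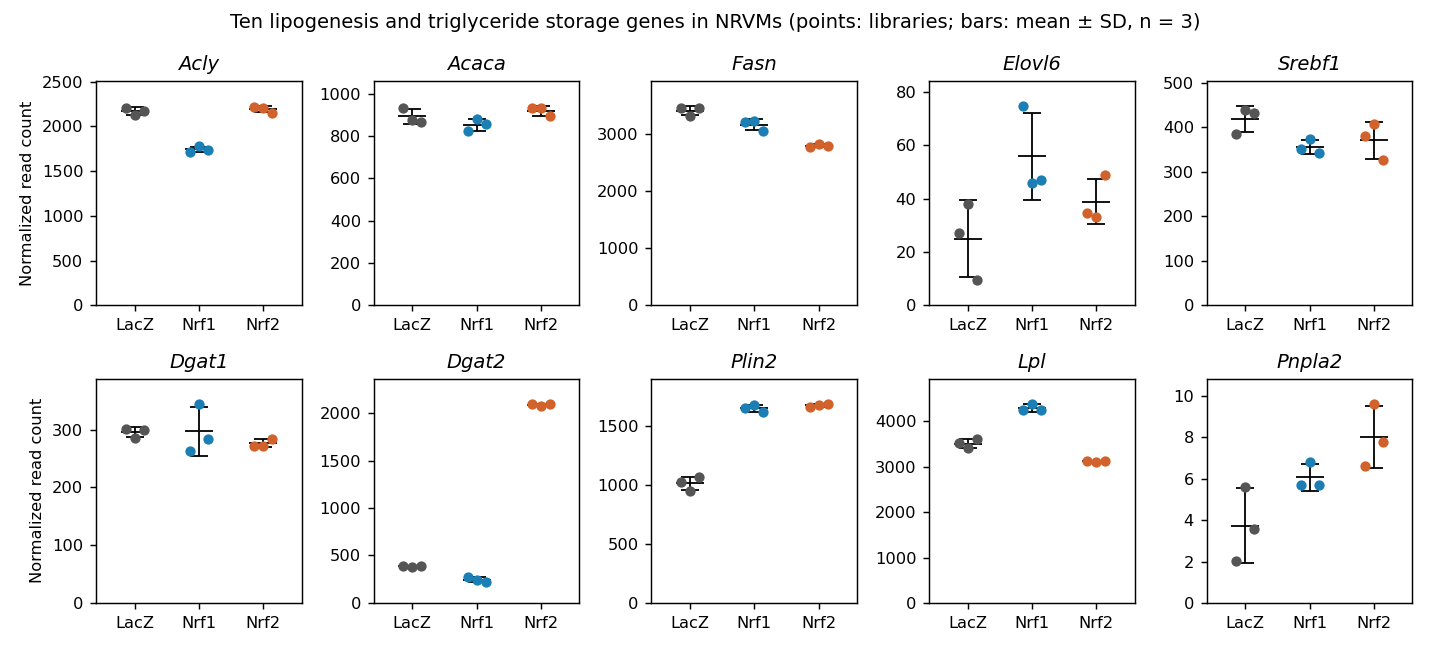
Normalized read count of each of the 10 genes in LacZ, Nrf1 and Nrf2 samples, 1 point per library with the mean and SD (n = 3) as bars; each panel has its own vertical axis from 0. Dgat2 reads 2077 to 2098 in Nrf2 samples against 383 to 392 in LacZ samples, and Plin2 is higher than LacZ with both factors.

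Dgat2 read 392, 383 and 391 in LacZ samples, 270, 245 and 220 in Nrf1 samples, and 2095, 2077 and 2098 in Nrf2 samples. The 3 groups were far apart, with the Nrf2 samples highest and the Nrf1 samples lowest. The coefficient of variation was 1.31% in LacZ, 0.544% in Nrf2 and 10.3% in Nrf1 libraries. At 330 to 390 reads per LacZ library and 2153 to 2529 per Nrf2 library, counting noise alone would exceed those groups' values. These 2 values therefore do not measure how tight the replicates were. Dgat2 rose by 2.43 ± 0.043 with Nrf2 on the log2 scale (adjusted p = 1.37e-14) and fell by 0.67 ± 0.080 with Nrf1 (adjusted p = 2.23e-06). In Nrf2 over Nrf1 the difference was 3.09 ± 0.059, a fold of 8.51 (adjusted p = 1.23e-17). By size it held rank 105 of 11386 genes from the top in Nrf2 over LacZ and rank 56 of 11307 in Nrf2 over Nrf1, and rank 1636 of 11202 from the bottom in Nrf1 over LacZ. The direction and call held in every alternative other than a 2-fold cutoff, which the Nrf1 difference did not reach.

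Dgat1, which makes triglyceride in the same reaction, read 286 to 302 in LacZ samples, 263 to 345 in Nrf1 samples and 272 to 285 in Nrf2 samples. Nrf1 samples overlapped both other groups. The intervals of the log2 difference were -0.20 to 0.19 in Nrf1 over LacZ, -0.24 to 0.05 in Nrf2 over LacZ and -0.28 to 0.08 in Nrf2 over Nrf1, so that a change of the size seen for Dgat2 lay outside all of them.

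The steps before these enzymes attach acyl chains to CoA and glycerol. Of 19 other genes of triglyceride synthesis with reads, 2 of 15 tested rose with Nrf1, 4 of 16 rose with Nrf2 and 2 of 16 were higher with Nrf2 than with Nrf1; none was called lower by limma, though 5, 4 and 3 were lower at an unadjusted p under 0.05. Agpat9, the older symbol of Gpat3, which encodes an acyltransferase that starts glycerolipid synthesis, averaged 134 ± 6.14 in LacZ samples, 304 ± 26.3 in Nrf1 samples and 590 ± 27.5 in Nrf2 samples. It rose by 1.17 with Nrf1 and 2.13 with Nrf2 and was 0.96 higher with Nrf2 than with Nrf1 (adjusted p = 8.24e-10). Mogat2, an enzyme that makes diacylglycerol from monoacylglycerol, had 10, 9 and 7 reads in LacZ libraries, 6, 4 and 8 in Nrf1 libraries and 73, 61 and 49 in Nrf2 libraries. Its Nrf2 values, 47.7 to 60.5, stood above both other groups, at 8.30 to 10.1 in LacZ samples and 3.90 to 9.15 in Nrf1 samples. Both of those groups averaged under 10, so Mogat2, which is counted among the 4 and the 2, passed the filter on low values only through Nrf2 samples and its values are a description. Lpin3, a phosphatidate phosphatase, rose by 0.68 and 0.62, calls that were lost without LacZ library b (0.56 and 0.50) and, with Nrf2, without Nrf2 library b (0.58). Acsl1, an acyl-CoA synthetase of heart and fat named after its values were seen, rose with Nrf2 by 0.59, close to the cutoff. That call was lost without LacZ library a, LacZ library b, Nrf2 library b or Nrf2 library c (0.55 to 0.58), when re-centred on the median gene and with upper-quartile scaling (both 0.57). Gpam, the mitochondrial glycerol-phosphate acyltransferase, differed by 0.36 with Nrf1 and -0.04 with Nrf2 and was not called. The median of this list was 0.01 with Nrf1, 0.12 with Nrf2 and 0.08 in Nrf2 over Nrf1.

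Plin2 read 1026, 953 and 1067 in LacZ samples, 1653, 1677 and 1624 in Nrf1 samples, and 1660, 1678 and 1691 in Nrf2 samples. Both factors gave values above every LacZ library, and the Nrf1 and Nrf2 samples overlapped. Plin2 rose by 0.70 ± 0.047 with Nrf1 (adjusted p = 3e-09, 1.62-fold) and by 0.73 ± 0.047 with Nrf2 (adjusted p = 1.12e-08, 1.65-fold). The difference of Nrf2 over Nrf1 was 0.02 ± 0.032 (adjusted p = 0.666), with a 95% interval of -0.05 to 0.08.

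Of 15 other lipid droplet genes 12 had reads and 8 were tested; 2 rose and 1 fell with Nrf1, 2 rose with Nrf2 and 1 was higher with Nrf2 than with Nrf1. Cidea, a protein that enlarges droplets, averaged 436 ± 69.0 in LacZ samples, 1196 ± 20.9 in Nrf1 samples and 843 ± 3.00 in Nrf2 samples, and rose by 1.46 and 0.96. Fitm2, which helps droplets bud from the endoplasmic reticulum, rose by 0.93 and 0.70. Hsd17b11, a droplet-associated dehydrogenase, fell by 0.88 with Nrf1 and was 0.83 higher with Nrf2 than with Nrf1. Plin5, a perilipin of oxidative muscle, had 2, 0 and 0 reads in LacZ libraries, 6, 3 and 2 in Nrf1 libraries and 6, 3 and 4 in Nrf2 libraries and was not tested. The list median was 0.48 with Nrf1 and 0.18 with Nrf2.

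Pnpla2, which encodes adipose triglyceride lipase, had 2, 5 and 3 reads in LacZ libraries a, b and c, 6, 7 and 5 in Nrf1 libraries and 8, 11 and 8 in Nrf2 libraries. With no filter on low values the log2 difference was 0.64 with Nrf1 (adjusted p = 0.2), 0.99 with Nrf2 (adjusted p = 0.0528) and 0.34 in Nrf2 over Nrf1 (adjusted p = 0.44). Levels were 2.01 to 5.61 in LacZ samples, 5.68 to 6.83 in Nrf1 samples and 6.63 to 9.62 in Nrf2 samples. Both factors' values lay above every LacZ library, the Nrf1 and Nrf2 samples overlapped, and no difference passed the test. Of 9 other lipolysis genes with reads 8 were tested; limma called 0 with Nrf1 (2 at an unadjusted p under 0.05), 2 rose with Nrf2 and 2 were higher with Nrf2 than with Nrf1. Abhd5, the coactivator of the Pnpla2 lipase, averaged 296 ± 26.5 in LacZ samples, 376 ± 20.4 in Nrf1 samples and 628 ± 25.4 in Nrf2 samples, and rose by 1.09 with Nrf2 (adjusted p = 1.52e-08). Its Nrf2 level was 0.74 above that of Nrf1 samples. Lipe, hormone-sensitive lipase, rose by 0.67 with Nrf2 from 40.9 ± 4.08 to 66.5 ± 14.6, and its difference with Nrf1 was 0.54 and not called. The Lipe call with Nrf2 was lost without Nrf2 library a (0.56) or Nrf2 library b (0.58), and with Nrf1 the gene was called without LacZ library b (0.60). Pnpla3, a close relative of Pnpla2, was 0.75 higher with Nrf2 than with Nrf1, a call lost without Nrf1 library b (0.49, adjusted p = 0.102) or Nrf2 library b (0.66, adjusted p = 0.0698) and with no trend (adjusted p = 0.0686).

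Lpl read 3523, 3408 and 3602 in LacZ samples, 4259, 4390 and 4241 in Nrf1 samples, and 3121, 3113 and 3119 in Nrf2 samples. The groups did not overlap, with Nrf1 samples above and Nrf2 samples below LacZ. The log2 difference over LacZ was 0.29 ± 0.035 for Nrf1 (adjusted p = 2.95e-06); for Nrf2 it was -0.17 ± 0.035 (adjusted p = 0.000848), and the direct comparison gave -0.47 ± 0.025 (adjusted p = 2.62e-11, 95% interval -0.52 to -0.41). None of these reached 1.5-fold.

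Of 18 other genes that control lipoprotein lipase or take up lipid, 15 had reads and 10 were tested; 1 rose and 3 fell with Nrf1, 3 fell with Nrf2, and 2 were higher with Nrf2 than with Nrf1. Cd36, the fatty acid transporter, averaged 193 ± 13.2 in LacZ samples, 352 ± 27.1 in Nrf1 samples and 273 ± 14.9 in Nrf2 samples, and rose with Nrf1 by 0.86; its 0.50 with Nrf2 was not past 1.5-fold. Angptl4, a secreted inhibitor of the lipase, fell by 0.60 with Nrf2 and differed by -0.06 with Nrf1; the call was lost without LacZ library c (-0.54), Nrf2 library a (-0.53) or Nrf2 library c (-0.58) and with a pseudocount of 5 (-0.56). Sel1l, needed for the lipase to leave the endoplasmic reticulum, fell by 0.74 and 0.63. Pcsk6, a protease that cleaves the lipase, fell by 0.87 with Nrf1 and was 1.09 higher with Nrf2 than with Nrf1. Lrp1, a large lipoprotein receptor, averaged 7243 ± 326 in LacZ samples, 2735 ± 145 in Nrf1 samples and 4500 ± 156 in Nrf2 samples, falling by 1.41 and 0.69, in the same order of groups as the fibroblast marker sums given above. The order was not particular to Lrp1. Means of Elovl4 (72.8, 19.8 and 27.5 in LacZ, Nrf1 and Nrf2 samples) and Sel1l (1232, 741 and 795) shared it, and those of Cidea and Cd36 had the reverse. A link to the fibroblast markers was not tested.

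**Figure D4:**
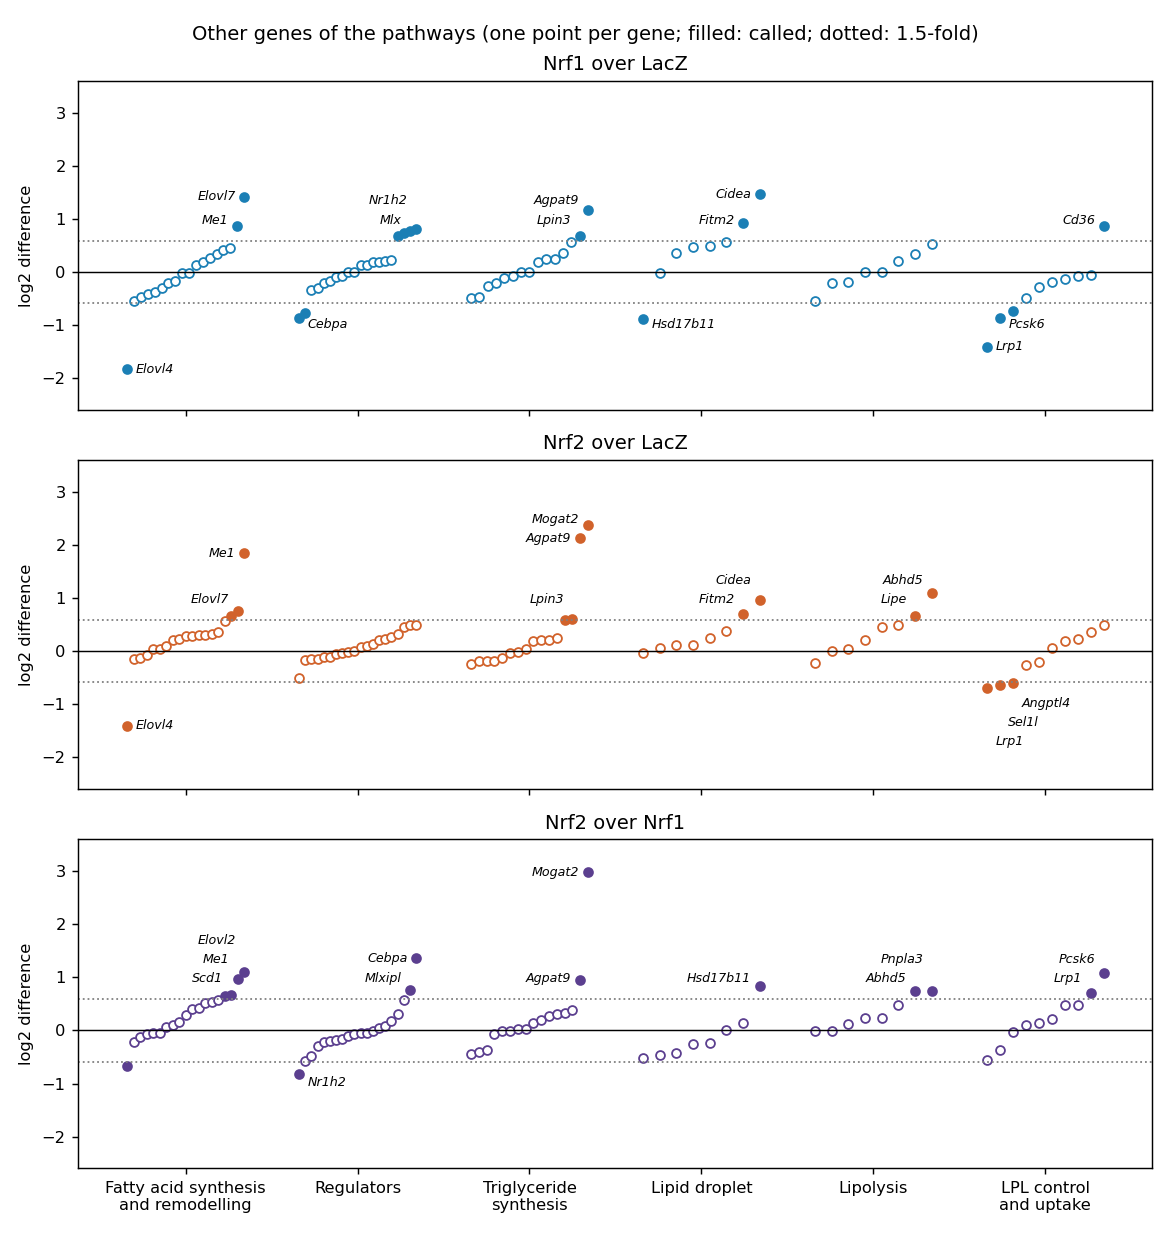
The log2 difference of each tested gene of the 6 pathway lists, 1 panel per comparison, sorted by size within a list; filled points were called, the dotted lines mark 1.5-fold and up to 3 called genes per list are named. Agpat9 at 2.13 and Me1 at 1.85 stand out in Nrf2 over LacZ, and no regulator was called there; Mogat2, the highest point, passed the filter on low values only through Nrf2 samples.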

How the data were processed

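The 9 RNA sequencing libraries comprise 3 each of NRVMs with LacZ, Nrf1 and Nrf2, at 7894221 to 11960378 counted reads. According to the paper's methods and the submitters' processing notes, the authors used FastQC 0.11.4, HISAT2 2.0.4 with Rnor 6.0, SAMtools 0.1.18 to remove duplicate reads, featureCounts 1.6.0 and edgeR 3.20.5. The signal the authors deposited, in 1 table per pair of groups, is the mean over a group's libraries of read counts divided by size factors; their fold changes, p-values and adjusted p-values were not used, and 0 columns of single samples were left unused.

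Each mean is a sum of whole reads times 3 steps, and each group stands in a pair of tables with other steps, so both means were solved for the reads of the libraries. Exactly 1 solution within rounding was found for 14469 of 14470 LacZ means, 14245 of 14245 Nrf1 means and 14617 of 14617 Nrf2 means. Reads solved from 1 table alone predicted the other table's mean for all 8330 Nrf1 and 8692 Nrf2 means examined. Only means up to a set limit were examined, so the most abundant genes were left out, and LacZ means were not examined. The steps used had been fitted to both tables, so the prediction was not fully independent. The libraries carry no replicate number, and no pair differed by less than sampling noise (median chi-square over its expectation 1.21 to 2.36). A count model was replaced by limma 3.58.1 in R 4.3.3, with a trend, on log2(normalized count + 1), within each table's 6 libraries and with the authors' scaling; the pseudocount pulls differences of low genes toward 0, and a mean of log values can lie on either side of the log of a mean. Levels in the text were scaled by median-of-ratios size factors over the 9 libraries, which moved no member's log2 difference by more than 0.00497.

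Genes with an average of at least 10 were tested and called at a fold above 1.5 and an adjusted p under 0.05. Beyond the 10 members and Nfe2l2, the text names up to 3 called genes with the largest change per list and comparison and 9 fixed genes (Me1, Scd1, Scd2, Gpam, Lipe, Plin5, Angptl4, Cd36, Insig1); others are marked. The members and lists were chosen with earlier results of these data known. The recovery and the limma fits were tested on simulated data. No rat sequence was used here. Alternatives covered cutoffs, pseudocounts, filters, scaling, variance models and leaving out libraries.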

Additional observations from a re-analysis of the deposited data

Results flagged for a closer look

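Dgat2 and Lpl each lay above LacZ samples with one factor and below them with the other, at an adjusted p under 0.05 both times in limma, and the factors differed when compared directly. Dgat2 fell by 0.67 with Nrf1 and rose by 2.43 with Nrf2 on the log2 scale, and Nrf2 over Nrf1 was 3.09 (adjusted p = 1.23e-17), with all 3 Nrf2 libraries above all 3 Nrf1 libraries. Lpl differed by 0.29 with Nrf1 and -0.17 with Nrf2, and Nrf2 over Nrf1 was -0.47 (adjusted p = 2.62e-11), with all 3 Nrf2 libraries below all 3 Nrf1 libraries and within 1.5-fold. The comparisons with LacZ share the LacZ libraries. The direct comparison uses the same Nrf1 and Nrf2 libraries and its direction follows from the other differences, so it adds no separate evidence.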

How the results depend on the processing

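Of 510 log2 differences of members under alternatives, 481 kept their direction and their side of the call. Alternatives that changed only a cutoff, the filter or the trend leave the log2 difference as it was, so only the call could change there. Reversed values were all near 0: Dgat1 in Nrf1 over LacZ was 0.00662 as a ratio of group means and -0.114 to 0.0808 over the leave-one-out fits, Acly in Nrf2 over LacZ was -0.00129 re-centred on the median gene and -0.00402 with upper-quartile scaling, and in Nrf2 over Nrf1 the leave-one-out fits gave -0.185 to 0.00858 for Dgat1 and -0.0213 to 0.138 for Srebf1. With a fold above 2, 1 member was called in each comparison, and 1413, 870 and 693 genes of all (Nrf1 over LacZ, Nrf2 over LacZ, Nrf2 over Nrf1), against 3095, 2057 and 1718. With adjusted p alone, members called were 7, 4 and 6, and all genes 7506, 6218 and 6642. With an average of at least 100, all genes called were 1812, 1110 and 892, since fewer genes were tested. Leaving out 1 library gave 3 members in Nrf1 over LacZ, 2 to 3 in Nrf2 over LacZ (3 without LacZ library b) and 1 to 2 in Nrf2 over Nrf1 (2 without Nrf1 library b, Nrf1 library c or Nrf2 library c); the added gene was Elovl6 each time.

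The counts called in the lists, in the order synthesis, regulators, triglyceride synthesis, droplet, lipolysis and lipase control, were 3, 6, 2, 3, 0 and 4 in Nrf1 over LacZ, 4, 0, 4, 2, 2 and 3 in Nrf2 over LacZ and 5, 3, 2, 1, 2 and 2 in Nrf2 over Nrf1. With a fold above 2 they were 2, 0, 1, 1, 0 and 1, then 2, 0, 2, 0, 1 and 0, then 1, 1, 1, 0, 0 and 1. With adjusted p alone they were 15, 12, 11, 7, 2 and 7, then 12, 8, 12, 4, 4 and 8, then 13, 11, 11, 6, 3 and 7. An average of at least 100 gave 1 for synthesis and 3 for regulators in Nrf1 over LacZ, 2 for synthesis and 1 for lipolysis in Nrf2 over LacZ, and 1 each for regulators, triglyceride synthesis and lipolysis in Nrf2 over Nrf1, where lipolysis also had 1 with an adjusted p under 0.01 or no trend. Leaving out 1 library gave 1 to 2 for triglyceride synthesis and 0 to 1 for lipolysis in Nrf1 over LacZ, 0 to 2 for regulators, 2 to 4 for triglyceride synthesis and 1 to 3 for lipolysis in Nrf2 over LacZ, and 3 to 5 for regulators and 1 to 2 for lipolysis in Nrf2 over Nrf1; the cause was not tested.

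No paired analysis was possible because the recovered libraries carry no replicate number. Where a fit leaves out 1 of 3 libraries, the spread is pooled over the groups. Few reads limit Pnpla2, Plin5, Mogat2, Elovl2 and Elovl6, which rest on at most 79 reads in any library. Why their counts were low was not tested. The p-values of abundant genes pass for differences well under 1.5-fold.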

Other observations

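Mogat2 and Dgat2 stand next to each other in the mouse annotation GRCm38.p6; rat gene order was not looked up, and these genes were chosen after their values were seen. Dgat2 rose with Nrf2 by 2.43 on the log2 scale over LacZ. Mogat2 had 7 to 10 reads in LacZ libraries and 49 to 73 in Nrf2 libraries, a difference of 2.39 in a gene that passed the filter on low values only through Nrf2 samples. The 4 measured genes beyond them in the mouse order (Uvrag, Wnt11, Map6 and Serpinh1) did not show a difference of that size in Nrf2 over LacZ, and Emsy, Thap12 and Gdpd5 were not analysed here. Uvrag, on the other side of Dgat2, averaged 459 ± 32.5 in LacZ samples and 350 ± 24.6 in Nrf2 samples (SD, n = 3), a log2 difference of -0.39 ± 0.073 (SE, limma adjusted p = 0.000398). Map6, on the other side of Mogat2, averaged 308 ± 19.1 and 412 ± 15.0, a difference of 0.42 ± 0.068 (adjusted p = 0.000118). Serpinh1, next after Map6, differed by -0.07 and Wnt11, beyond Uvrag, by 0.25 (adjusted p = 0.138 and 0.496). In Nrf1 over LacZ, Wnt11 was called lower (-0.79, limma adjusted p = 0.0462). It was called higher in Nrf2 over Nrf1 (1.04, adjusted p = 0.00196), and its Nrf1 samples averaged only 10.9. Uvrag, Map6 and Serpinh1 differed by -0.50, 0.35 and -0.24 with Nrf1 and were not called. Their differences in Nrf2 over Nrf1 were 0.10, 0.07 and 0.17, also not called.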
